A study of Mus musculus with 9 samples.

Results

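The genes examined were 43 genes of mitosis and chromosome segregation, chosen by name for their known roles, with earlier results of these data known. They comprise the cyclins and kinases of mitotic entry, chromosome structure proteins, the spindle checkpoint, the kinetochore, the chromosomal passenger complex, the machinery of anaphase, spindle motors and the proteins of the central spindle and cytokinesis. Of these, 42 had a probe set that named that gene alone, among 18193 genes measured in all, and Ccnb1 was not analysed here. Where several probe sets named a gene, the brightest on average across the 9 arrays was read, and levels are log2 signals after robust multi-array averaging (RMA), in which each unit is a doubling. The level of one gene cannot be set against that of another gene, because probe sets differ in brightness.

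The auditory nerve of adult CBA/CaJ mice of both sexes, aged 8 to 12 weeks, was profiled in 3 forms, with 3 arrays for each. Neurospheres were obtained from dissociated nerve cells that were first grown to confluency and then kept for 12 days in a serum-free proliferation medium that held EGF at 20 ng/ml, heparin at 2 µg/ml and FGF at 10 ng/ml. Cultured cells were the same kind of adherent culture, taken at confluency after 5 to 7 days in medium with 10% serum. Tissue was the nerve as dissected, with no treatment and no culture. No label states if the 3 samples per group derive from different mice or different dishes, and the p-values therefore cover the spread among these samples alone, part of which may be technical. Each group was a mixture of cells, and in such a mixture fewer cells of a type and less RNA per cell cannot be told apart.

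Most genes of this set are transcribed in waves, from late S phase to mitosis, and are silent in cells that have left the cell cycle. Cyclin-dependent kinase 1 with its cyclins drives entry into mitosis, the spindle checkpoint holds cells before anaphase until every kinetochore is attached, and the anaphase-promoting complex then marks cyclins and securin for destruction. In the adult nerve the neurons do not divide and the glia do so rarely, and a sphere-forming culture is a common way to test for cells that still can.

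The signals of most of these genes were dim on the arrays of dissected nerve. The median of the 42 group means was 8.70 in neurospheres, 10.37 in cultured cells and 5.01 in tissue. Ranked among all genes of the same group, the median member stood at percentile 65.9 in neurospheres, 86.95 in cultured cells and 22.7 in tissue. A percentile ranks the signals of unlike probe sets, so it too is only a rough guide. A list of 12 sperm genes, taken as not expressed in any of these samples, had group means between 3.66 and 6.46 in neurospheres, between 3.27 and 6.33 in cultured cells and between 3.34 and 6.44 in tissue. The number of members at or under the highest sperm gene was 1 in neurospheres, 0 in cultured cells and 34 in tissue. Since probe sets differ in brightness, the sperm genes, whose median in tissue was 4.19, give only a rough guide to background, and whether a given gene was above background in tissue was not tested. Where it was not, the size of the difference from tissue depends on the floor of its own probe set, so the order of these differences among genes is given only as a description of the fitted values.

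**Figure D1:**
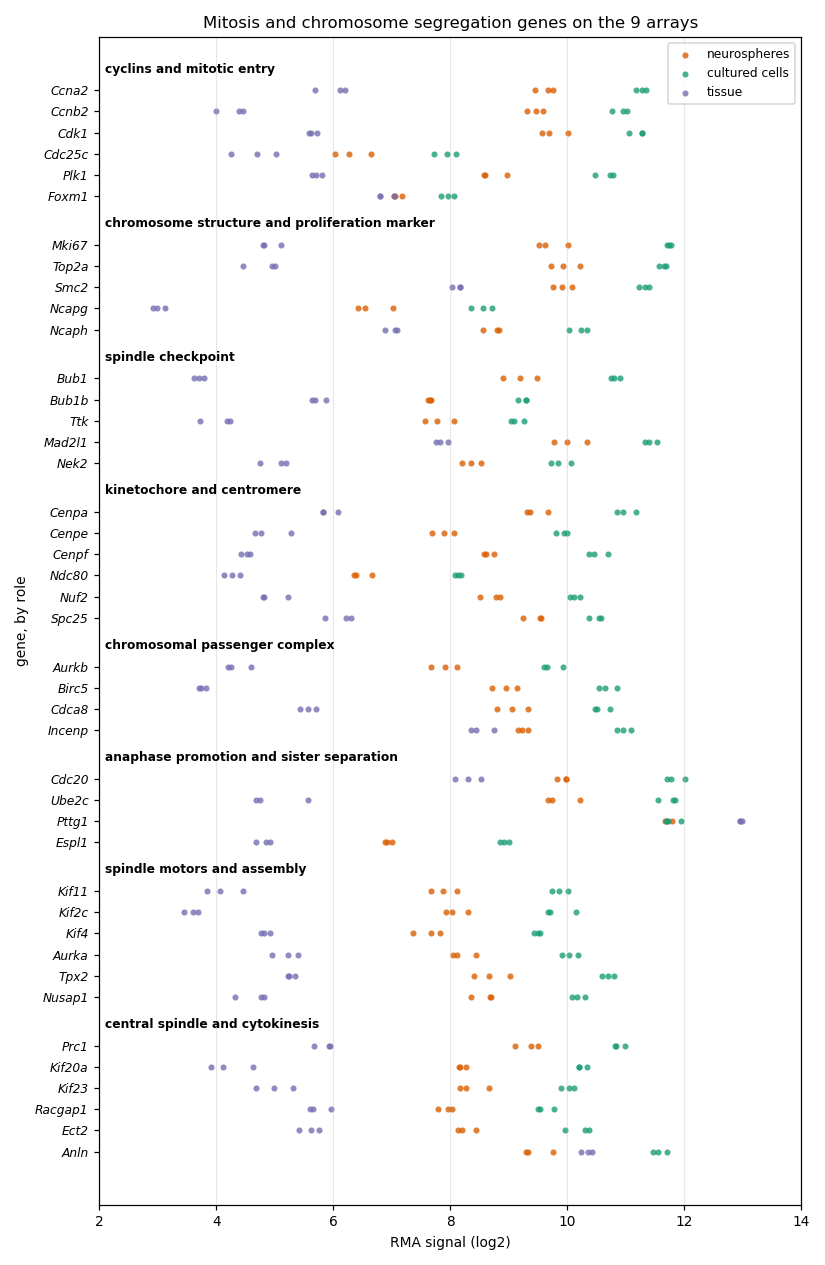
Level of each of the 42 measured genes (log2 RMA signal, horizontal axis) on the 3 neurosphere, 3 cultured cell and 3 tissue arrays, by role. For 40 of the 42 genes the order of the group means was cultured cells over neurospheres over tissue, and Anln and Pttg1 did not follow it. The share of all genes in that order was not counted.

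Neurospheres held more of nearly all of these transcripts than tissue. In neurospheres 39 of the 42 genes were higher and 2 were lower than in tissue, at an adjusted p under 0.05 and a fold over 1.5 by limma (Benjamini-Hochberg over 18193 genes), against 21.7% of all genes higher and 21% lower. The median difference was 3.40 on the log2 scale, or 10.5-fold, while the median over all genes was 0.05. The lower genes were Pttg1 and Anln, and Foxm1 did not pass. The arrays of the 2 groups did not overlap for any member, with 40 higher and 2 lower, where 36.7% of all genes were higher and 31.4% lower without overlap. In 9 members the difference exceeded 16-fold, and the share of all genes past that limit was not counted.

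Cultured cells stood farther from tissue, with 41 genes higher and 1 lower, against 20.4% of all genes higher and 22% lower. The median difference was 5.01 on the log2 scale, or 32.3-fold, and the lower gene was again Pttg1. In 30 members the difference exceeded 16-fold, again without a count over all genes at that limit. The groups did not overlap for any member in this comparison either (33.8% of all genes were higher and 34.8% lower without overlap). Both comparisons use the same 3 tissue arrays, so their values stand side by side and are not independent of each other.

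Neurospheres had less of these transcripts than confluent cultured cells. In neurospheres 41 of the 42 genes were lower than in cultured cells and 0 were higher, against 8.91% of all genes lower and 9% higher. The median difference was -1.67 on the log2 scale, a level 3.19-fold lower in neurospheres, while the median over all genes was 0.05. The spread of the differences was narrow: the quartiles were -1.87 and -1.51, and the 41 genes other than Pttg1 ranged from -2.12 for Anln to -0.86 for Foxm1. In 40 members the level in neurospheres was more than 2-fold lower, where 1618 of 18193 genes were called at a fold over 2 in either direction. In 5 members it was more than 4-fold lower, and the share of all genes past that limit was not counted. The arrays of 41 members did not overlap, where 20.6% of all genes were lower and 27.8% higher without overlap, and those of Pttg1 did.

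**Figure D2:**
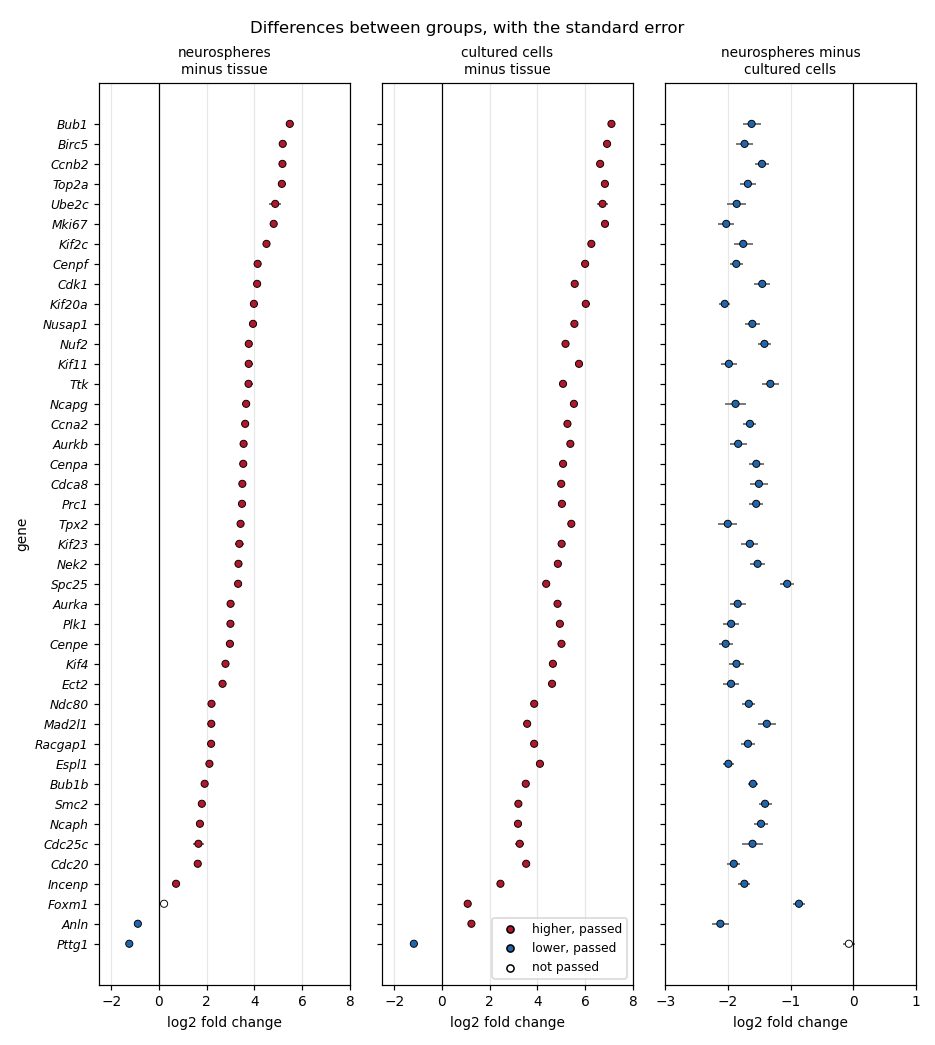
Log2 fold change of each gene with its standard error (bars, often smaller than the point) for neurospheres minus tissue, cultured cells minus tissue and neurospheres minus cultured cells, with genes in the order of the first panel; the last panel has its own axis. Differences from tissue ran from -1.24 to 5.49 in neurospheres and from -1.18 to 7.11 in cultured cells, while those between neurospheres and cultured cells lay between -2.12 and -0.07.

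Whole-array features differed between the groups as well. The log2 difference between the 3′ and the 5′ probe sets of actin, which grows as RNA is degraded, was 0.70 ± 0.15 in neurospheres, 0.36 ± 0.037 in cultured cells and 2.71 ± 0.35 in tissue (SD, n = 3 each). All 7 glial markers were lower in neurospheres than in tissue, and their summed linear signal was 2710 to 3087 in neurospheres, 3279 to 3864 in cultured cells and 53810 to 55440 in tissue. Of the neuronal markers 8 of 9 were lower in neurospheres than in tissue, with sums of 1127 to 1364 in neurospheres, 882.5 to 1009 in cultured cells and 68060 to 75320 in tissue. Of the fibroblast markers 7 of 8 were higher, with sums of 70360 to 72370 in neurospheres, 50630 to 57660 in cultured cells and 24100 to 27570 in tissue. Against tissue, neurospheres had 7 of 9 macrophage markers lower, 5 of 7 endothelial markers lower with 2 higher, and 5 of 14 bone marrow and blood markers lower with 2 higher. The summed signal was 461.6 to 664.7 in neurospheres, 569.5 to 801.0 in cultured cells and 4058 to 5094 in tissue for macrophages. It was 3805 to 5713 in neurospheres, 4593 to 5232 in cultured cells and 3046 to 3288 in tissue for endothelium, and 1517 to 2861 in neurospheres, 456.4 to 536.6 in cultured cells and 1547 to 4505 in tissue for bone marrow and blood. A sum follows its brightest probe sets. The median endothelial marker level was 5.43 to 5.53 in neurospheres, 7.56 to 7.76 in cultured cells and 8.05 to 8.29 in tissue. The part of RNA quality and of the change in cell types in the differences from tissue was not tested.

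The promoters of these genes were read for the motifs best known from genes of this phase of the cell cycle. The members were chosen by name for known roles, so the shares of the motifs describe that choice and do not rest on the array values. The cell cycle genes homology region (CHR), with the letters TTTGAA or TTCGAA, is bound by complexes that hold the MuvB core, and the CCAAT box is bound by NF-Y. Both motifs were searched on both strands in the RefSeq window from 250 bases before to 50 after the annotated start (build GRCm38.p6), which was at hand for 35 of the 42 genes. Abutting matches of the 2 motifs can share a base. Some genes had several windows (32851 windows for 27025 genes in the table), and a match in any window was counted. The motifs of a gene counted with both can thus lie in different windows. A CHR match was present for 27 of the 35 genes (77.1%), against 17.5% of 14452 genes tested with a window and 21.7% of 27025 genes in the table. A CCAAT box was present in 26 (74.3%), against 42.0% and 41.1% of those same sets, and both were present in 24 (68.6%), against 8.25% and 9.65%. For 18 genes (51.4%) a CHR match began within 50 bases before to 20 after the start, as it did in 3.55% and 4.84% of those sets. Stretches of 150 bases that begin 100 bases before the start are shown for 4 genes with matches (Ccnb2, Cdk1 and Cdc20, which follow the common pattern, and Anln, which does not) and for 2 without (Birc5, which rose against tissue, and Pttg1, the exception in all comparisons). Each sequence runs 5′ to 3′ along its gene, and capitals mark CHR and CCAAT matches. A CCAAT box on the other strand reads ATTGG. A CHR on the other strand reads TTCAAA. The stretches lie at chr9:70421505-70421654, minus strand, for Ccnb2; at chr10:69352863-69353012, minus strand, for Cdk1; and at chr4:118437294-118437443, minus strand, for Cdc20. The remaining stretches lie at chr9:22389157-22389306, minus strand, for Anln; at chr11:117849137-117849286, plus strand, for Birc5; and at chr11:43425932-43426081, minus strand, for Pttg1.
Ccnb2: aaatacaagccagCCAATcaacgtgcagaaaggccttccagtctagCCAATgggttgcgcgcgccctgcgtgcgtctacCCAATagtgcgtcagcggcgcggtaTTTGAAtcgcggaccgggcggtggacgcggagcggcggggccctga
Cdk1: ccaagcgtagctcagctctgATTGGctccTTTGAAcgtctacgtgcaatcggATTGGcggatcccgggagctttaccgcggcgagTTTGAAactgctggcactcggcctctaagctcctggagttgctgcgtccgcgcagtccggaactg
Cdc20: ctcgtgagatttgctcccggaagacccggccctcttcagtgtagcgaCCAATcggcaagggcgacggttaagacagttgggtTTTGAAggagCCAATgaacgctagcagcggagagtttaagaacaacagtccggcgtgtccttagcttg
Anln: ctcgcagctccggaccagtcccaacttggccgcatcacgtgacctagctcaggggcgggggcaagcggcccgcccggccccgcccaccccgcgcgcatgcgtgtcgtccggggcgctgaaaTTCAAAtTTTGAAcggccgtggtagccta
Birc5: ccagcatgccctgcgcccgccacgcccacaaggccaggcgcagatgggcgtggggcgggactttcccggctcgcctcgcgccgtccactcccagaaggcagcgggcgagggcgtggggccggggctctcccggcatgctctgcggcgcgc
Pttg1: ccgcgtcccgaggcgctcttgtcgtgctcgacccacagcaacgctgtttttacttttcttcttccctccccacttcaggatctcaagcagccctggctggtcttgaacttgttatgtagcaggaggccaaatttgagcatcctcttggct

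In the Ccnb2 window a CHR match began 4 bases after the start and CCAAT boxes began 87, 54 and 21 bases before it, with another CHR match 167 bases before it, outside the stretch shown. In the Cdk1 window CHR matches began 71 and 15 bases before the start, and in the Cdc20 window a CHR match 18 bases before the start lay between CCAAT boxes 53 and 8 bases before it. Anln had CHR matches 21 and 28 bases after its start, on opposite strands, and no CCAAT box. Neither motif was found in the windows of Birc5 and Pttg1, nor in those of Ncaph, Mad2l1, Nuf2 and Nusap1, and no CHR match was found in those of Nek2 and Cenpe. The median difference between neurospheres and tissue was 3.48 for the 27 genes with a CHR match and 3.16 for the 8 without. Between neurospheres and cultured cells the medians were -1.68 for the 27 genes and -1.50 for the 8. A match is a string of letters and not a shown binding site, and its absence speaks only of these windows.

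**Figure D3:**
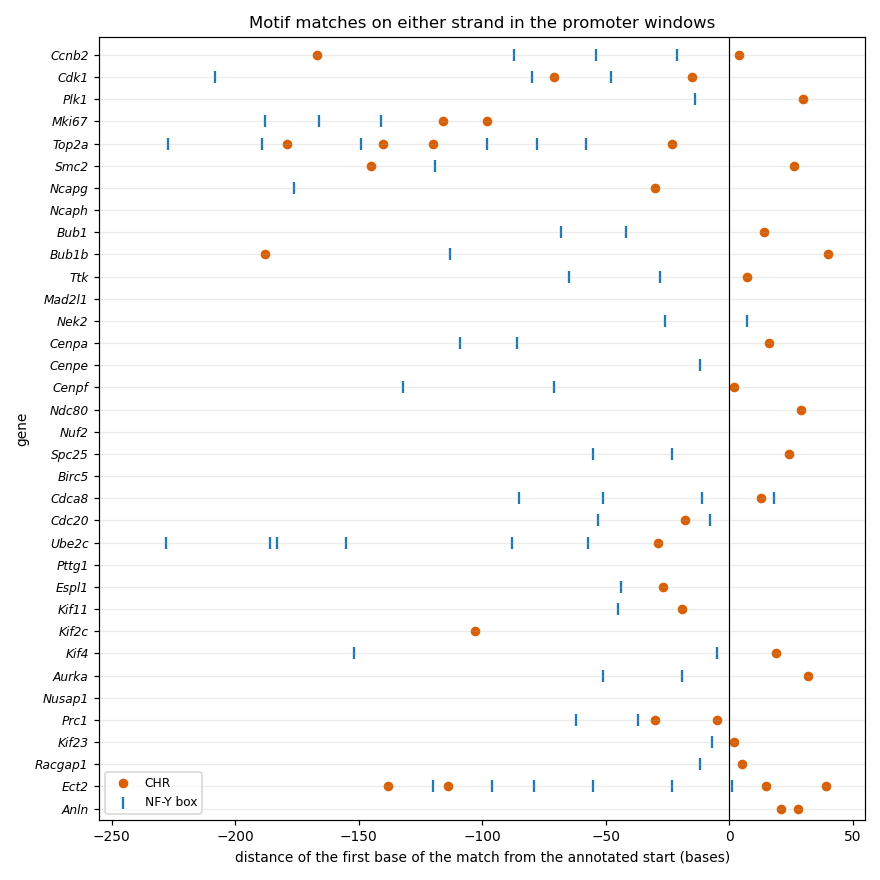
Position of each CHR match (circles) and each CCAAT box, labelled NF-Y box (ticks), by distance in bases from the annotated start, for the 35 genes with a promoter window. Of these windows 27 hold a CHR match, and in 18 such a match lies between 50 bases before and 20 after the start.

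Among the cyclins and kinases of mitotic entry, 5 of 6 genes were higher in neurospheres than in tissue, with a median difference of 3.31, and all 6 were lower in neurospheres than in cultured cells, with a median of -1.53. Cyclin B2 (Ccnb2), a partner of the mitotic kinase, had levels of 9.59, 9.31 and 9.46 in neurospheres, 10.95, 11.02 and 10.76 in cultured cells, and 4.46, 3.99 and 4.38 in tissue. The 3 groups were far apart, with the neurosphere arrays between the others. The difference from tissue was 5.18 ± 0.14 in neurospheres (SE; limma adjusted p = 7.94e-09), and neurospheres differed from cultured cells by -1.46 ± 0.11 (adjusted p = 2.52e-05).

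Cdk1, the kinase itself, had levels of 10.01, 9.57 and 9.68 in neurospheres, 11.28, 11.28 and 11.06 in cultured cells, and 5.62, 5.58 and 5.72 in tissue. All neurosphere arrays lay between the other groups, 17.3-fold above tissue (limma adjusted p = 1.42e-08) and 2.73-fold below cultured cells (adjusted p = 6.48e-05). Plk1, the polo-like kinase that acts from mitotic entry to cytokinesis, had 8.96, 8.59 and 8.58 in neurospheres, 10.73, 10.78 and 10.47 in cultured cells, and 5.70, 5.64 and 5.81 in tissue. Its fall against cultured cells, -1.95 ± 0.13 (SE; limma adjusted p = 1.74e-05), was deeper than the median of its group. Cyclin A2 (Ccna2) and the phosphatase Cdc25c, which removes the inhibitory phosphates from Cdk1, were higher in neurospheres than in tissue by 3.61 and 1.66 and lower than in cultured cells by -1.65 and -1.61, all past the test.

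Foxm1, a transcription factor that drives many genes of this set, differed little between neurospheres and tissue on the probe set read here. Its levels were 7.06, 7.04 and 7.17 in neurospheres, 8.06, 7.85 and 7.96 in cultured cells, and 7.04, 6.80 and 6.79 in tissue. The neurosphere and tissue arrays were nearly adjacent, and the cultured cells were above both. Neurospheres and tissue differed by 0.22 ± 0.10, which did not pass (SE; limma adjusted p = 0.0901), while cultured cells were 1.08 ± 0.10 above tissue (adjusted p = 8.07e-06) and neurospheres -0.86 ± 0.09 from cultured cells (adjusted p = 0.000151). The other probe sets of Foxm1 did not give one answer. In neurospheres against tissue probe set 1448834_at differed by 1.49 (limma adjusted p = 2.04e-05 over all probe sets), 1417748_x_at by 0.43 and 1437138_at by 0.07, the last at a level near 2.9 in every group. Probe set 1448834_at also differed by 3.04 in cultured cells against tissue and by -1.56 in neurospheres against cultured cells, as most members did. The call for Foxm1 in neurospheres against tissue thus rests on which probe set is read.

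The chromosome structure genes were higher in neurospheres than in tissue in 5 of 5 cases, with a median of 3.66, and lower than in cultured cells in 5 of 5, with a median of -1.68. Mki67, which coats mitotic chromosomes and encodes the proliferation marker Ki-67, had levels of 10.01, 9.51 and 9.62 in neurospheres, 11.78, 11.74 and 11.70 in cultured cells, and 4.80, 4.81 and 5.10 in tissue. Neurospheres exceeded tissue by 4.81 ± 0.15, or 28.0-fold (SE; limma adjusted p = 1.67e-08), and were 4.07-fold below cultured cells (adjusted p = 1.24e-05). Top2a, the topoisomerase that untangles sister chromatids, had 10.22, 9.73 and 9.93 in neurospheres, 11.69, 11.66 and 11.57 in cultured cells, and 4.95, 4.46 and 5.01 in tissue. Its difference between neurospheres and tissue, 5.15 ± 0.17 (limma adjusted p = 3.01e-08), was the largest of its role among the probe sets read here. Other probe sets of Top2a differed from tissue by 1.27, past the test, and by 0.51, which did not pass.

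The members of the condensin complexes, which compact the chromosomes, were Ncaph, Smc2 and Ncapg. Ncaph, a non-SMC subunit of condensin I, had 8.80, 8.55 and 8.83 in neurospheres, 10.33, 10.24 and 10.03 in cultured cells, and 7.09, 7.05 and 6.89 in tissue. Neurospheres exceeded tissue by 1.72 ± 0.11 (SE; limma adjusted p = 1.29e-06). The probe set read for Ncaph is marked as matching more than 1 transcript, and its other probe set, not so marked, gave 2.32. Smc2, the ATPase core that both condensins share, differed by 1.80 from tissue and by -1.41 from cultured cells, and its other 4 probe sets differed from tissue by 0.82 to 3.30. Ncapg, another condensin I subunit, differed by 3.66 from tissue and by -1.88 from cultured cells, and its other probe set by 0.89 and -1.89.

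All 5 genes listed with the spindle checkpoint were higher in neurospheres than in tissue (median 3.33) and lower than in cultured cells (median -1.53). Bub1, a checkpoint kinase at the kinetochore, had levels of 9.49, 8.89 and 9.19 in neurospheres, 10.80, 10.89 and 10.74 in cultured cells, and 3.79, 3.71 and 3.62 in tissue. Neurospheres were 44.8-fold above tissue (limma adjusted p = 7.94e-09) for the probe set read here, and 3.08-fold below cultured cells (adjusted p = 6.68e-05). Its other probe set differed from tissue by 2.95 and from cultured cells by -1.08, so the size of the step depends on the probe set. Bub1b, which encodes the BubR1 component of the mitotic checkpoint complex, had the smallest fitted difference of its role. It had 7.62, 7.66 and 7.67 in neurospheres, 9.29, 9.30 and 9.16 in cultured cells, and 5.64, 5.69 and 5.88 in tissue, a difference of 1.92 ± 0.09 between neurospheres and tissue (SE; adjusted p = 2.55e-07). The checkpoint kinase Ttk differed from tissue by 3.75, the checkpoint protein Mad2l1 by 2.19, and Nek2, a kinase that parts the centrosomes, by 3.33. For Nek2, other probe sets differed from tissue by 2.16, past the test, by 0.28, which did not pass, and by -0.61, called lower. Those of Bub1b differed by 1.8 and 0.67 and that of Ttk by 0.94, all past the test.

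At the kinetochore and centromere 6 of 6 genes were higher in neurospheres than in tissue (median 3.43) and 6 of 6 were lower than in cultured cells (median -1.61). Cenpa, the histone variant that marks the centromere, had levels of 9.67, 9.32 and 9.36 in neurospheres, 10.96, 11.17 and 10.85 in cultured cells, and 5.83, 5.83 and 6.09 in tissue. The groups did not overlap, and neurospheres were 11.6-fold above tissue (limma adjusted p = 3.65e-08) and 2.92-fold below cultured cells (adjusted p = 4.22e-05). Cenpf, a large protein of the outer kinetochore, had 8.62, 8.57 and 8.74 in neurospheres, 10.70, 10.46 and 10.38 in cultured cells, and 4.57, 4.52 and 4.43 in tissue. Its difference of 4.14 ± 0.09 between neurospheres and tissue (SE, limma adjusted p = 3.02e-09) was the largest of its role among the probe sets read here. Other probe sets of Cenpf differed from tissue by 0.75, past the test, and by 0.21, which did not pass. The other probe set of Cenpe differed from tissue by 4.14, so the rank depends on the probe set.

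Ndc80, Nuf2 and Spc25 encode subunits of the Ndc80 complex, which grips the microtubule end. Ndc80 itself had levels of 6.66, 6.38 and 6.36 in neurospheres, 8.19, 8.09 and 8.13 in cultured cells, and 4.14, 4.26 and 4.40 in tissue. Neurospheres exceeded tissue by 2.20 ± 0.11 for Ndc80 (SE; limma adjusted p = 4.11e-07), by 3.77 ± 0.14 for Nuf2 and by 3.32 ± 0.14 for Spc25, and the differences between these genes were not tested. Against cultured cells the same genes differed by -1.67, -1.42 and -1.05 in neurospheres. Cenpe, a kinesin that carries chromosomes to the spindle equator, had 8.07, 7.68 and 7.89 in neurospheres and 9.81, 9.99 and 9.95 in cultured cells, against 4.77, 4.66 and 5.28 in tissue. It was among the 5 members more than 4-fold lower in neurospheres than in cultured cells (-2.04 ± 0.11; adjusted p = 6.31e-06).

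The chromosomal passenger complex, which corrects wrong attachments and later moves to the central spindle, had 4 of 4 genes higher in neurospheres than in tissue (median 3.52) and 4 of 4 lower than in cultured cells (median -1.73). Aurkb, its kinase, had levels of 8.11, 7.67 and 7.90 in neurospheres, 9.65, 9.93 and 9.61 in cultured cells, and 4.19, 4.25 and 4.59 in tissue. Neurospheres exceeded tissue by 3.55 ± 0.14 (SE; limma adjusted p = 8.97e-08), and the probe set that gave this value is one marked as matching more than one transcript. Birc5 (survivin), which brings the complex to the centromere, had 9.15, 8.71 and 8.96 in neurospheres, 10.64, 10.84 and 10.54 in cultured cells, and 3.70, 3.74 and 3.82 in tissue. It differed from tissue by 36.5-fold in neurospheres (adjusted p = 3.81e-09), and its promoter window held neither motif.

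Incenp, the scaffold of the same complex, showed a much smaller step from tissue than its partners. Its levels were 9.32, 9.22 and 9.15 in neurospheres, 10.96, 11.09 and 10.85 in cultured cells, and 8.74, 8.44 and 8.36 in tissue. Neurospheres were 1.64-fold above tissue (limma adjusted p = 0.000605), close to the fold limit of 1.5, and 3.33-fold below cultured cells (adjusted p = 5.63e-06), close to the median of the members. The probe set read for Incenp is marked as matching more than 1 transcript. Its other probe sets, not so marked, differed from tissue by 1.45 and 1.0, both past the test, and by -0.07 and 0.06, which were not. Cdca8 (borealin), the last subunit, differed from tissue by 3.50 and from cultured cells by -1.50.

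**Figure D4:**
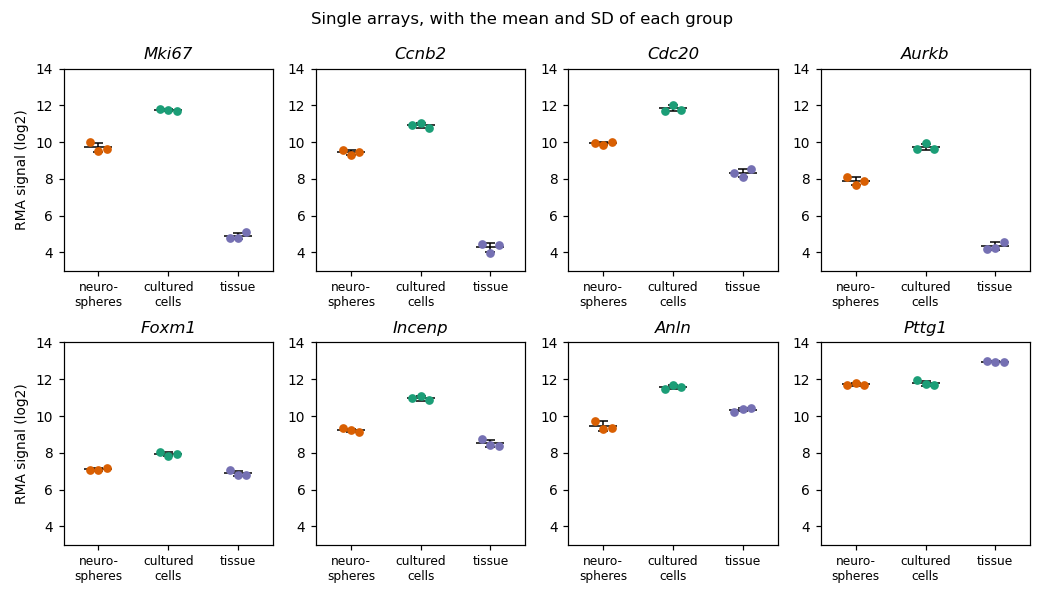
Levels (log2 RMA signal) of 8 genes on single arrays (points) with the mean and SD of each group (bars, n = 3), for neurospheres, cultured cells and tissue. Mki67, Ccnb2, Cdc20 and Aurkb show the common order. Foxm1 and Incenp lie close to tissue in neurospheres for the probe sets read here. Anln is lowest in neurospheres, and Pttg1 is highest in tissue, at 12.94 to 12.99.

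The differences of the anaphase genes from tissue ran from -1.24 to 4.87 in neurospheres. In neurospheres 3 of 4 genes were higher than in tissue and 1 was lower (median 1.87), and 3 of 4 were lower than in cultured cells (median -1.88). Cdc20, the activator through which the checkpoint acts on the anaphase-promoting complex, had levels of 9.97, 9.82 and 9.98 in neurospheres, 11.71, 12.01 and 11.77 in cultured cells, and 8.30, 8.08 and 8.52 in tissue. Neurospheres exceeded tissue by 1.63 ± 0.12 (SE, limma adjusted p = 4.24e-06) and differed from cultured cells by -1.91 ± 0.10 (adjusted p = 5.61e-06). This probe set is marked as matching more than 1 transcript. Other probe sets of Cdc20 differed from tissue by 2.79 and 1.28, both past the test. Ube2c, the ubiquitin-conjugating enzyme of that complex, had 10.22, 9.66 and 9.74 in neurospheres, 11.81, 11.83 and 11.56 in cultured cells, and 4.69, 5.57 and 4.75 in tissue. Its tissue arrays were the most uneven of any member (SD 0.49), and the difference of 4.87 ± 0.24 was still many times that spread (adjusted p = 3.13e-07). Espl1 (separase), the protease that cuts cohesin, had 6.91, 6.89 and 7.00 in neurospheres, 8.92, 9.01 and 8.85 in cultured cells, and 4.91, 4.86 and 4.68 in tissue, and was 3.98-fold lower in neurospheres than in cultured cells (adjusted p = 1.73e-06).

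Pttg1 (securin), the inhibitor that holds separase in check, ran the other way. Its levels were 11.67, 11.78 and 11.70 in neurospheres, 11.95, 11.72 and 11.69 in cultured cells, and 12.99, 12.94 and 12.95 in tissue. Neurospheres and cultured cells overlapped (-0.07 ± 0.09; limma adjusted p = 0.633), and every tissue array was above both. Against tissue the difference was -1.24 ± 0.08 in neurospheres (SE; adjusted p = 1.70e-06) and -1.18 ± 0.09 in cultured cells (adjusted p = 2.26e-06). This probe set, 1438390_s_at, is marked as matching more than one transcript. Probe set 1419620_at gave -1.38 in neurospheres and -1.46 in cultured cells against tissue, both past the test, while 1424105_a_at gave -0.57 and -0.41, which were not past the fold limit. All 3 probe sets of Pttg1 were thus lower than in tissue, by unequal amounts, and none of them differed between neurospheres and cultured cells past the test.

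Of the spindle motors and assembly factors 6 of 6 were higher in neurospheres than in tissue, with differences between 2.79 and 4.51 (median 3.59), and 6 of 6 were lower than in cultured cells (median -1.85). Kif2c, a kinesin that takes microtubule ends apart, had levels of 8.31, 7.92 and 8.03 in neurospheres, 9.66, 10.15 and 9.70 in cultured cells, and 3.59, 3.69 and 3.45 in tissue. This was a difference of 22.8-fold between neurospheres and tissue (limma adjusted p = 8.18e-09), from a probe set marked as matching more than 1 transcript. Other probe sets of Kif2c differed from tissue by 2.55, past the test, and by 0.31 and 0.03, which did not pass. Kif4, a motor on chromosome arms, had the smallest fitted difference of its role, with 7.83, 7.36 and 7.68 in neurospheres, 9.43, 9.53 and 9.49 in cultured cells, and 4.81, 4.77 and 4.92 in tissue. Neurospheres were still 6.91-fold above tissue for Kif4 (adjusted p = 1.70e-07).

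Kif11, the kinesin that pushes the spindle poles apart, had 8.11, 7.67 and 7.87 in neurospheres, 9.73, 10.02 and 9.85 in cultured cells, and 4.07, 3.84 and 4.46 in tissue. Tpx2, which activates Aurora A and nucleates spindle microtubules, had 9.01, 8.40 and 8.66 in neurospheres, 10.69, 10.80 and 10.59 in cultured cells, and 5.25, 5.34 and 5.23 in tissue. Neither gene overlapped between groups, and both were about as far below cultured cells, by -1.98 ± 0.13 for Kif11 and -2.0 ± 0.15 for Tpx2 (SE; limma adjusted p = 1.40e-05 and 2.82e-05). Aurka, the Aurora A kinase of the spindle poles, and Nusap1, which bundles spindle microtubules, differed from cultured cells by -1.84 and -1.61. Their other probe sets differed by -0.43 and -0.18, which did not pass. For Tpx2, other probe sets differed from cultured cells by -1.86, past the test, and by -0.29 and -0.35, which did not pass.

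Among the genes of the central spindle and cytokinesis 5 of 6 were higher in neurospheres than in tissue and 1 was lower (median 3.02), and all 6 were lower than in cultured cells (median -1.81). Kif20a, the kinesin that takes the passenger complex to the central spindle, had levels of 8.27, 8.15 and 8.16 in neurospheres, 10.20, 10.34 and 10.19 in cultured cells, and 3.91, 4.62 and 4.11 in tissue. It was 15.8-fold above tissue (limma adjusted p = 1.08e-07) and 4.14-fold below cultured cells (adjusted p = 1.70e-06) in neurospheres. Ect2, the exchange factor that turns on RhoA at the cleavage furrow, had 8.44, 8.14 and 8.21 in neurospheres, 9.96, 10.37 and 10.30 in cultured cells, and 5.75, 5.41 and 5.62 in tissue. Its difference from tissue was 2.67 ± 0.12 in neurospheres (SE; adjusted p = 1.80e-07). Prc1, which cross-links the midzone microtubules, and the centralspindlin partners Kif23 and Racgap1 differed from tissue by 3.48, 3.37 and 2.19. For Kif23 other probe sets gave 3.05 and 0.11, and for Racgap1 2.15 and 0.13. The smaller value of each gene did not pass.

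Anln (anillin), which ties actin, myosin and septins together in the contractile ring, was the only member that was highest in cultured cells and lowest in neurospheres. Its levels were 9.75, 9.29 and 9.33 in neurospheres, 11.47, 11.71 and 11.55 in cultured cells, and 10.24, 10.36 and 10.43 in tissue. The 3 groups did not overlap. Neurospheres were 1.85-fold below tissue (limma adjusted p = 0.000384) and 4.35-fold below cultured cells (adjusted p = 1.28e-05), the largest fall of any member against cultured cells, while cultured cells were 2.35-fold above tissue (adjusted p = 2.03e-06). The other probe set of Anln, 1439648_at, was also lower in neurospheres than in tissue (-1.50) and than in cultured cells (-1.16), but in cultured cells it differed from tissue by -0.35 and did not pass.

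Within a group the members tended to be high or low on the same array. Neurosphere array 1 was the highest of its 3 for 34 of the 42 genes (81%), against 40.1% of all genes, and array 2 the lowest for 37 (88.1%), against 33.5%. Cultured cell array 2 was the highest for 32 genes (76.2%), against 28.8% of all genes, and array 3 the lowest for 28 (66.7%), against 37.8%. Tissue array 2 was the lowest for 20 genes (47.6%), against 29.7% of all genes, and the highest for 5. Genes of one array share its RNA and are not independent. These shifts were small beside the differences between groups: the median of the members was 8.82, 8.53 and 8.71 on the neurosphere arrays, 10.40, 10.41 and 10.34 on the cultured cell arrays, and 5.22, 5.16 and 5.15 on the tissue arrays.

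The 42 genes had 95 probe sets in all, and 29 of the genes had several. The probe sets read for Aurkb, Bub1b, Cdc20, Cdca8, Incenp, Kif2c, Ncaph, Nek2, Prc1 and Pttg1 are marked as matching more than 1 transcript. Tested singly by limma, 73 of the 95 were higher and 5 lower in neurospheres than in tissue, against 24.3% and 18.8% of all 34945 probe sets that name 1 gene. The other 17, which belong to Aurka, Cenpf, Foxm1, Incenp, Kif11, Kif23, Kif2c, Nek2, Pttg1, Racgap1, Top2a and Tpx2, did not pass. The size and rank of a difference within a role can thus depend on the probe set read. In cultured cells against tissue 83 were higher and 3 lower, against 24% and 19.7%. In neurospheres against cultured cells 0 were higher and 76 lower, against 8.14% and 9.39%. The 5 lower probe sets in neurospheres against tissue were 2 of Pttg1, 2 of Anln and 1 of Nek2, and the 3 in cultured cells against tissue were 2 of Pttg1 and 1 of Nek2.

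Other genes of cell division, from lists by function, are given for comparison; over all genes 21.7% were higher and 21% lower in neurospheres than in tissue, and 8.91% lower than in cultured cells. Of 34 further kinetochore and centromere genes, 25 were higher and 1 lower in neurospheres than in tissue (median 1.5), and 23 were lower than in cultured cells (median -1.14). Cenpw, Kntc1 and Cenpi rose most against tissue, by 3.48, 3.30 and 3.29. The lower gene was Zwint, which links the checkpoint to the kinetochore, with 11.62, 11.52 and 11.62 in neurospheres, 11.76, 11.66 and 11.60 in cultured cells, and 12.33, 12.47 and 12.58 in tissue. Like Pttg1, Zwint was highest in tissue and did not pass between neurospheres and cultured cells (limma adjusted p = 0.482).

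Of 27 further spindle, centrosome and cytokinesis genes, 19 were higher and 1 lower in neurospheres than in tissue (median 1.70), and 22 were lower than in cultured cells (median -1.34). Ckap2, Cep55 and Hmmr rose most against tissue, by 4.38, 4.21 and 4.06, and Cep55, the abscission scaffold, was lower than in cultured cells by -2.29. The lower gene was Cit, the citron kinase that binds anillin at the midbody. It had 6.86, 7.03 and 7.16 in neurospheres, 9.0, 9.21 and 9.22 in cultured cells, and 8.80, 8.63 and 8.40 in tissue, so that, as for Anln, neurospheres were lowest (limma adjusted p = 5.98e-06 against tissue).

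The anaphase-promoting complex and the condensin and cohesin genes had lower medians against tissue than the kinetochore and spindle lists. Of 15 genes of the anaphase-promoting complex and its regulators, 7 were higher in neurospheres than in tissue (median 0.58), and only Fbxo5, the inhibitor Emi1, was lower than in cultured cells (-1.66; limma adjusted p = 7.74e-05). Ube2s, Fzr1 and Cdc16 rose most against tissue, by 2.05, 1.93 and 1.37. Of 16 further condensin and cohesin genes, 5 (31.2%) were higher and 1 (6.25%) lower in neurospheres than in tissue (median 0.18), a share of higher genes not far from the 21.7% of all genes, and 6 (37.5%) were lower than in cultured cells. Esco2, the cohesin acetyltransferase of S phase, differed from tissue by 4.02, and Ncapd3, a condensin II subunit, by -0.60.

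Of 15 further genes of mitotic entry and exit, 7 were higher and 1 lower in neurospheres than in tissue (median 0.51), and 7 were lower than in cultured cells. The kinases Pbk and Melk and the Cdk-binding protein Cks1b rose most against tissue, by 4.77, 4.11 and 3.01, and Cdc14a, a phosphatase, fell, with a difference of -2.12. Among 24 DNA replication genes 23 were higher in neurospheres than in tissue (median 1.40), and 20 were lower than in cultured cells (median -1.15). Rrm2, a subunit of ribonucleotide reductase, the thymidine kinase Tk1 and the licensing factor Cdt1 rose most, by 4.19, 3.65 and 2.96. A CHR match was present for 4 of 20 replication genes with a promoter window (20%), close to the 17.5% of all genes tested, and a CCAAT box for 12 (60%), against 42.0%.

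Of 20 transcriptional regulators of the cell cycle, 7 (35%) were higher and 4 (20%) lower in neurospheres than in tissue (median 0.42), against 21.7% and 21% of all genes, so that the lower share was that of all genes. Against cultured cells 10 (50%) were lower, where 8.91% of all genes were. The repressors E2f8 and E2f7, the activators E2f1 and E2f3, the E2F partner Tfdp1, the pocket protein Rbl1 and the MuvB subunit Lin9 were higher than in tissue, by 3.58, 2.46, 1.31, 0.72, 1.24, 0.99 and 0.67. Tfdp2, E2f6, the MuvB subunit Lin52 and the retinoblastoma gene Rb1 were lower than in tissue, by -1.02, -0.79, -0.76 and -0.67. Against cultured cells E2f7 (-2.16), Mybl2 (-1.22), Mybl1 (-1.17), Lin52 (-1.06), Rb1, Tfdp2, Rbl1, Lin9, E2f6 and Tfdp1 were lower in neurospheres. Mybl2, the B-Myb partner of MuvB, had 5.29, 4.62 and 4.95 in neurospheres, 6.03, 6.43 and 6.06 in cultured cells, and 4.49, 4.42 and 4.30 in tissue. Like Foxm1 on the probe set read here, Mybl2 did not pass in neurospheres against tissue. Its difference of 0.55 lay under the fold limit (limma adjusted p = 0.0144).

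The D cyclins, their kinases and the Cdk inhibitors did not share the fall against cultured cells. Of 12 genes 8 were higher and 2 lower in neurospheres than in tissue (median 1.85), and 4 were higher and 2 lower than in cultured cells (median 0.07). Cdkn2b, the inhibitor p15, had 10.39, 10.81 and 10.62 in neurospheres, 8.23, 8.44 and 8.36 in cultured cells, and 5.52, 4.99 and 5.39 in tissue. It was thus highest in neurospheres, by 5.31 over tissue and by 2.26 over cultured cells (limma adjusted p = 1.45e-08 and 4.97e-06). Cdkn1c, the inhibitor p57, was lowest there, with 6.91, 7.32 and 7.47 in neurospheres, 10.67, 9.89 and 9.98 in cultured cells, and 9.38, 9.49 and 9.52 in tissue. Ccnd1, Cdk6 and Cdkn2a were higher in neurospheres than in cultured cells by 0.63, 0.61 and 0.91, Ccnd2 was lower by -0.68, and Cdkn1b differed from tissue by -1.12.

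**Figure D5:**
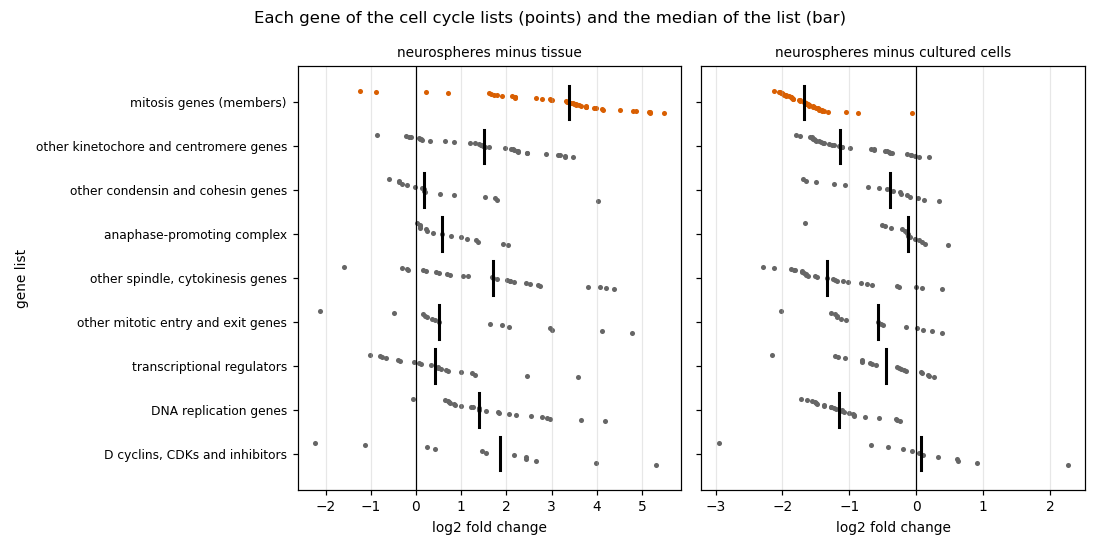
Log2 fold change of every measured gene (points) and the median (bars) of the 42 members (orange) and 8 other cell cycle lists, for neurospheres minus tissue (left) and neurospheres minus cultured cells (right, with its own axis). The member medians were 3.40 and -1.67, those of the DNA replication genes 1.40 and -1.15, and those of the D cyclins, CDKs and inhibitors 1.85 and 0.07.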

How the data were processed

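Total RNA (100 ng) from 3 samples each of neurospheres, cultured cells and auditory nerve tissue was labelled with the Affymetrix 3′ IVT Express kit and hybridised to 1-colour Affymetrix mouse arrays. The deposited values are log2 expression values that the authors made with RMA in Affymetrix Expression Console; the submitters' processing notes also name MAS5, and give no versions. They were used without further normalization. Of 45101 probe sets, 34945 named 1 gene, 932 several and 9160 none, and 64 were controls; symbols were updated through RefSeq (GRCm38.p6), and 204 were kept as given. No value column lay outside the 9 arrays (0 columns). For each gene the probe set with the highest mean was kept. Each pair of groups was fitted on its 6 arrays by lmFit and eBayes of limma 3.58.1 under R 4.3.3, with p-values adjusted after Benjamini-Hochberg, and called at an adjusted p under 0.05 and a fold over 1.5. In simulated data of 18193 genes for neurospheres against tissue, 200 genes were changed. Of those changed by 1 log2 unit 83% were recovered, and of those changed by 2 99%, with 2.67% false calls. Far more genes, 7762, were called in the data, so these shares may not carry over to them. The number of arrays limits the precision.

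The members and lists were chosen with earlier results of these data known. Every member is named. Values on single arrays are given for Mki67, Top2a, Cdk1, Foxm1, Bub1, Aurkb, Birc5, Cdc20, Cenpa and Ect2, for the genes with the largest and smallest difference of each role in neurospheres against tissue, and for the 10 largest changes against cultured cells. From other lists up to 3 genes that rose and 3 that fell most are named, besides all regulators that passed; single-array values of Zwint, Cit, Mybl2, Cdkn2b and Cdkn1c were chosen after they were seen. Alternatives were the mean of a gene's probe sets, leaving out shared probe sets, other scaling, a filter on low values, all 9 arrays in one fit, a trended prior, the methods' t-test, other fold limits, a replicate block and leaving out each array. Testing every probe set on its own was added after seeing the data.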

Additional observations from a re-analysis of the deposited data

How the results depend on the processing

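Across the alternatives no value of a member changed sign among those called, and the counts of members called higher stayed between 36 and 39 in neurospheres against tissue and between 38 and 41 in cultured cells against tissue; the count called lower in neurospheres against cultured cells stayed between 38 and 41. Filtering the 40% of genes with the lowest expression removed 3 members, and gave the low end of each range. Members lower in neurospheres than in tissue numbered 1 without probe sets marked as shared, where Pttg1 differed by -0.57 (limma adjusted p = 0.00661), and 1 at a fold over 2, where Anln was no longer called. Members lower in cultured cells than in tissue numbered 0 without shared probe sets (Pttg1 -0.41, adjusted p = 0.0176). With the mean of all probe sets Anln was 0.44 above tissue in cultured cells and Spc25 differed by -0.57 between neurospheres and cultured cells, both under the fold limit. Incenp against tissue and Foxm1 against cultured cells were not called at a fold over 2. Over all genes, the calls numbered 4961 for neurospheres against tissue at a fold over 2, against 7762; 11641 with no fold limit and 4901 at a fold over 2 for cultured cells against tissue, against 7718; and 6367 with no fold limit and 1618 at a fold over 2 for neurospheres against cultured cells, against 3259. Leaving out each array in turn left 39 members higher and 2 lower in neurospheres against tissue, 41 higher and 1 lower in cultured cells against tissue, and 41 lower in neurospheres against cultured cells. With quantile normalization the median of all genes was 0.12 and 0.11 for the comparisons with tissue, and Foxm1 differed by 0.46 between neurospheres and tissue (adjusted p = 0.00399), still under the fold limit. Whether the replicate numbers of the labels pair the samples cannot be settled from 3 arrays per group. Deviations of samples with the same number correlated between -0.19 and 0.21. The highest correlation with another number lay between -0.07 and 0.21. For replicate 1 of cultured cells against tissue the same number gave 0.21 and the best other number -0.07. With the replicate block 39 members were higher and 2 lower in neurospheres than in tissue, and 7777 genes were called, and it changed no other call of a member. Dim signals in tissue limit how exactly the differences from tissue can be sized.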
